A study of Mus musculus with 4 samples.

Results

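A set of 39 genes of DNA replication and mitosis were followed in mouse small-intestinal organoids given the liver X receptor agonist GW3965. They were taken as a list of names, not by a cut on their values, though earlier results of these data were known when it was chosen. The list held 17 replication genes (Mcm2 to Mcm7, Pcna, Rrm1, Rrm2, Tyms, Cdc45, Gins2, Cdt1, Cdc6, Pole, Ccne1 and Ccne2) and 22 mitosis genes, out of 30284 genes in the tables. The cultures were of 2 kinds. In the first, crypts were kept for 6 h with 2 µM GW3965, a drug-like activator of these nuclear receptors, and in the second they were kept for 6 h with the vehicle DMSO. Crypts came from 2 male C57BL/6J mice, given as 9 weeks old in the labels, and each mouse gave 1 culture of each kind, so that every group had 2 libraries. The labels name no engineered allele, and the crypts were seeded in Matrigel. The extraction text of the labels speaks of colon, while the tissue label names small-intestinal organoids. All 39 genes passed the filter on low counts, and they held 24748 and 30354 estimated counts in the GW3965 libraries of mouse 1 and mouse 2, against 36855 and 30023 in the DMSO libraries.

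A cell copies its genome in S phase and divides it in M phase. Before S phase, Cdc6 and Cdt1 load the hexameric Mcm2 to Mcm7 helicase onto origins, and Cdc45 and the GINS complex then activate it, while ribonucleotide reductase and thymidylate synthase supply deoxynucleotides. Later, Cdk1 with cyclins A and B, the Aurora and Polo kinases, motor proteins and the anaphase-promoting complex build the spindle and part the chromosomes. In the intestine these genes are active in the stem cells and the rapidly dividing transit-amplifying cells of the crypt and are silent in the differentiated villus cells. Transcription of the replication genes is known to be driven mainly by E2F factors, and that of the mitosis genes by complexes that bind the CHR (cell cycle genes homology region) together with NF-Y at CCAAT boxes.

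The start-site windows of the members carried these motifs, and 6 of them are shown because they place the replication and mitosis genes side by side at the level of sequence. A RefSeq window on build GRCm38.p6, of 250 bases before and 50 after the annotated start, was matched for 32 of the 39 genes (33 windows, since Mcm7 has 2). Gins2, Ccna2, Tpx2, Pole, Ccne2, Aurkb and Mcm4 were not matched. Of the 6 windows shown, the first 3 are of mitosis genes and the last 3 of helicase subunits (Mcm2, Mcm3 and Mcm6). The mitosis genes are Ccnb2 (a B-type cyclin), Cdc20 (the activator of the anaphase-promoting complex) and Top2a (topoisomerase IIα). Capitals mark matches on either strand. The letters searched were CCAAT for the CCAAT box, TTTGAA and also the palindrome TTCGAA for the CHR, and TTTCGCGC, TTTGGCGC or TTTCCCGC for the E2F type. Each runs 5′ to 3′ on the strand of its gene.
Ccnb2 (chr9:70421505-70421804, minus strand): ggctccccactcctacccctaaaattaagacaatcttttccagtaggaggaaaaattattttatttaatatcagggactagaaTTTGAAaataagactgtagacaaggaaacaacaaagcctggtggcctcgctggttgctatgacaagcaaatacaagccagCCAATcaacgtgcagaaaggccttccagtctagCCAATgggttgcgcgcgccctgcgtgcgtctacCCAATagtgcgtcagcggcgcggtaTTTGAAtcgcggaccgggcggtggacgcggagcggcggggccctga
Cdc20 (chr4:118437294-118437593, minus strand): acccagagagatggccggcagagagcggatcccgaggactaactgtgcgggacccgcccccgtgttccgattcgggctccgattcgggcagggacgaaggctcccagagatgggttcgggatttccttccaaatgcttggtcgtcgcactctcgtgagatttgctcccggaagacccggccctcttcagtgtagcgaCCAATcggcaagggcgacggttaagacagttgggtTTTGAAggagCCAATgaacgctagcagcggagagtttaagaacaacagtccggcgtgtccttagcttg
Top2a (chr11:99024140-99024439, minus strand): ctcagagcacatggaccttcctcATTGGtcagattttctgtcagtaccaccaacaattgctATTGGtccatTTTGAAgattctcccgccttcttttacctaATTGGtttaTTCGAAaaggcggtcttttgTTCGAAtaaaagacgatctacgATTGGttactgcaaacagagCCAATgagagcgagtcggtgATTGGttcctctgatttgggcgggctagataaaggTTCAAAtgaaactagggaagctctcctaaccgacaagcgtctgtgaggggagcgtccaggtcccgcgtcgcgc
Mcm2 (chr6:88898731-88899030, minus strand): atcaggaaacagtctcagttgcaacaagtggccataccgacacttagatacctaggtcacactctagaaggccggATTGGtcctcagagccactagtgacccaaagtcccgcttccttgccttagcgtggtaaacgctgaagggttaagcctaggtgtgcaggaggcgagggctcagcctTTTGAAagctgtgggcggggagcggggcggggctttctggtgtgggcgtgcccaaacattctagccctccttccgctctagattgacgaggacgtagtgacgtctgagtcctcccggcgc
Mcm3 (chr1:20820263-20820562, minus strand): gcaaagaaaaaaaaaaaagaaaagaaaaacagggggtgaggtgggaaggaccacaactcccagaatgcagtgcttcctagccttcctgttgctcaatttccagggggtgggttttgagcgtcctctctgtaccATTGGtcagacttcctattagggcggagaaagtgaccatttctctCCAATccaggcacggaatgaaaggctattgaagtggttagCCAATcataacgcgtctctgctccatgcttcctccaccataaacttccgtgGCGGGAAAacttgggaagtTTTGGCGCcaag
Mcm6 (chr1:128359656-128359955, minus strand): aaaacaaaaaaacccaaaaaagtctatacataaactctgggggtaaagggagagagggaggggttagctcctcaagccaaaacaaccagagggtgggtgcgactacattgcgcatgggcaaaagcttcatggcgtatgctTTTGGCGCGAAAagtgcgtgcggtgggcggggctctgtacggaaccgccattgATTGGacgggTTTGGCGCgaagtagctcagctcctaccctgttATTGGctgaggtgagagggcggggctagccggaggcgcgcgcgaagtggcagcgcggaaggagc

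CHR letters stood in 15 of 19 mitosis windows (78.9%) and in 3 of 14 replication windows (21.4%), against 19.2% of all 32851 windows of the same length. E2F-type letters showed the other order, with 1 of 19 mitosis windows (5.26%) and 6 of 14 replication windows (42.9%), against 1.84% of all windows. CCAAT was found in 17 of 19 mitosis windows and 10 of 14 replication windows (89.5% and 71.4%), against 37.4% of all, and 12 mitosis windows held at least 2. All 15 mitosis windows with CHR letters also held CCAAT, a pairing present in 7.52% of all windows. In the printed Ccnb2 window, CCAAT began at positions -87, -54 and -21 from the start and TTTGAA at -167 and 5. The Mcm6 window held 3 E2F-type matches, of which the pair that began at -110 and -106 overlapped on opposite strands. The last bases of the Mcm6 window were not found in a transcript of the gene, so its positions hold for the RefSeq start only. The same was true of the windows of Mcm5, Aurka, Hmgb2, Kif11 and Kif23. Mcm2 had no E2F-type match of these letters, unlike Mcm3, Mcm5, Mcm6 and 1 of the 2 windows of Mcm7. Overlapping matches were also seen in Mcm5, for E2F-type letters, and in Ube2c, for CCAAT. In Mcm7 an E2F-type match that began at 17 overlapped a CCAAT that began at 24. A match is a description of the letters only, and no factor was measured at these windows.

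**Figure D1:**
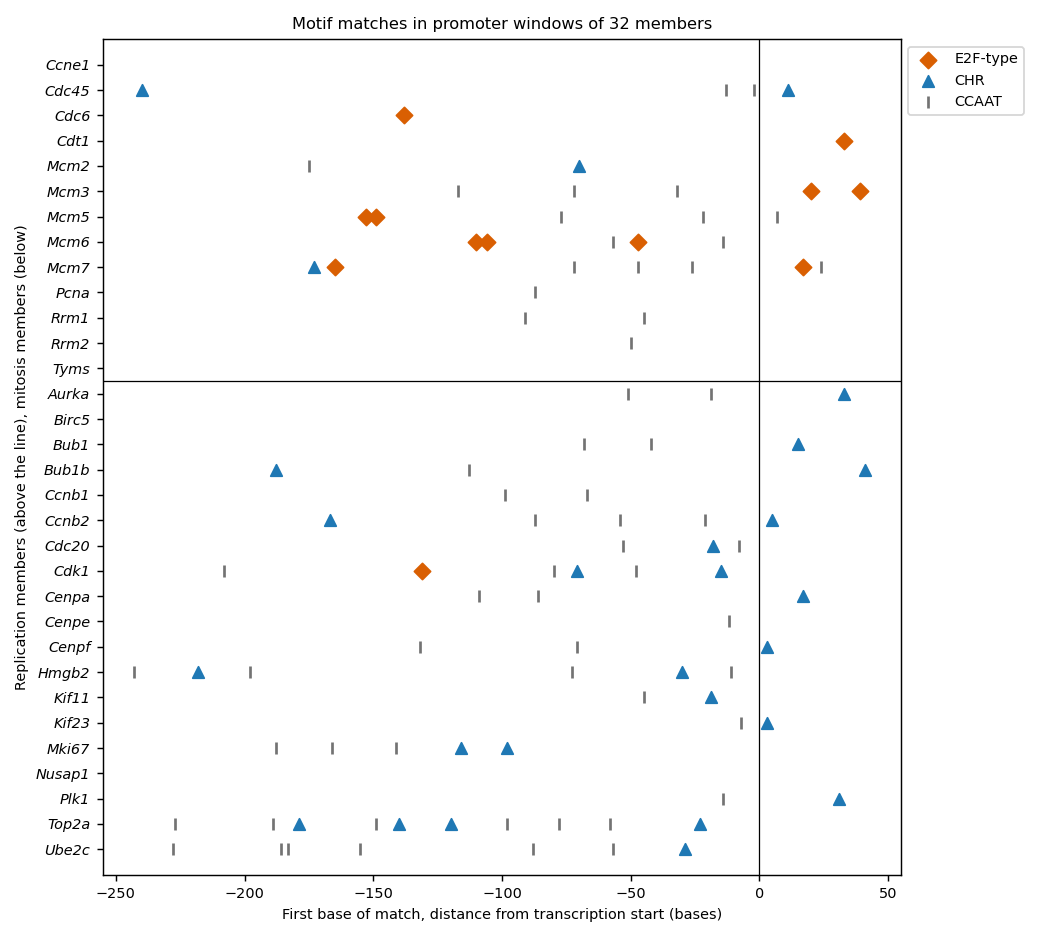
Motif matches in the promoter windows of 32 members, with the distance of the first matched base from the transcription start on the x axis (bases) and 1 row per gene. Diamonds (E2F-type) lie mostly in the upper, replication rows, where 6 of 14 windows have one, and triangles (CHR) mostly in the lower, mitosis rows, where 15 of 19 windows have one. Ticks are CCAAT boxes, and both Mcm7 windows are drawn on 1 row.

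Levels per length spanned about 2 orders of magnitude among the members. Levels are given here as TPM, a share of the library's transcripts scaled by length, summed over a gene's transcripts, which allows genes of different length to be compared. Pcna, the sliding clamp of the polymerases, was the most abundant, with 143.9 and 168.6 TPM in the GW3965 libraries of mouse 1 and mouse 2 and 173.0 and 165.2 TPM in the DMSO libraries. No other member overlapped it. Ube2c, the ubiquitin-conjugating enzyme of the anaphase-promoting complex, followed with 61.2 and 73.3 TPM, against 108.6 and 68.6 TPM with DMSO. Its range overlapped that of the third, the chromatin protein gene Hmgb2 (63.9 to 73.4 TPM), and that of the fourth, Cdk1 (47.2 to 66.7 TPM), so these 3 were not ordered beyond their spread. Ccnb1, Cenpa, Top2a, Cdc20, Birc5 and Rrm2 came next, with medians over the 4 libraries of 35.1, 35.5, 38.4, 30.5, 31.4 and 28.3 TPM and overlapping ranges. The helicase subunits, which act in equal numbers in the complex, ran from a median of 11.8 TPM for Mcm4 to 25.6 TPM for Mcm7. At the low end stood the large kinetochore proteins Cenpe (1.18 to 2.24 TPM) and Cenpf (1.04 to 2.89 TPM) and the checkpoint kinase Bub1 (3.05 to 3.84 TPM). Mki67, whose protein is the usual stain for dividing cells, had only 3.31 to 5.67 TPM, although by reads it ranked higher, since its transcript of 10075 bases is long.

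**Figure D2:**
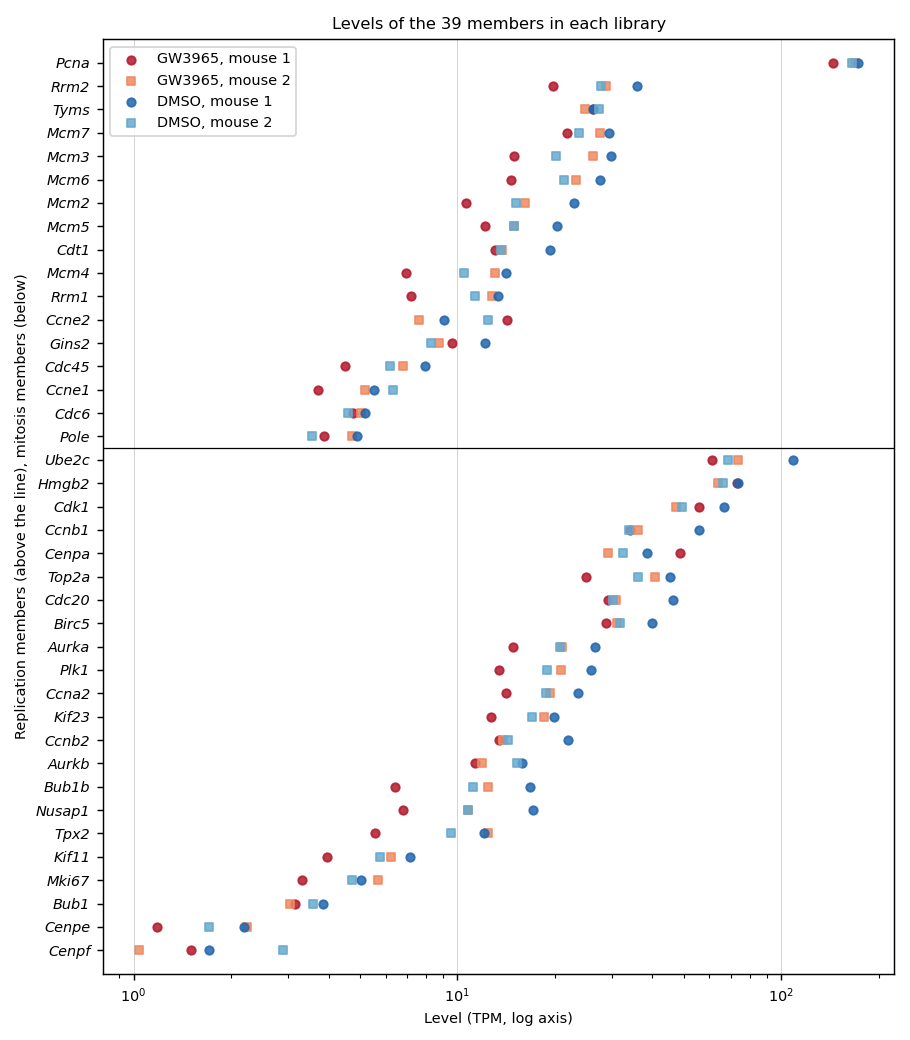
Level of each of the 39 members in each library (TPM on a log axis), replication genes above the line and mitosis genes below, ordered within each by the mean of the 4 libraries. Points are single libraries, coloured by treatment and shaped by mouse. Pcna stands apart at the top with 143.9 to 173.0 TPM, and for many genes the red circle (GW3965, mouse 1) is at the left and the dark blue circle (DMSO, mouse 1) at the right of the row. In TPM, all genes tested also had a negative median in mouse 1 (GW3965 minus DMSO, log2), at -0.23.

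Over all genes the GW3965 library of mouse 1 stood apart, at -45.8 on the first principal component (49.3% of the variance), against 26.6 for the GW3965 library of mouse 2 and 8.67 and 10.5 for the DMSO libraries. No member changed with GW3965 in the test across all genes, which does not show that their levels were equal. In edgeR's quasi-likelihood test of the 2 GW3965 against the 2 DMSO libraries, 0 of 39 members had a Benjamini-Hochberg adjusted p under 0.05 (the smallest was 0.99986), where 8 of 13602 genes tested, 0.0588%, did. At an unadjusted p under 0.05 the count was also 0 of 39, against 1.05% of all genes, and DESeq2 and limma-voom called 0 members too. With the mouse as a block, which pairs the cultures of 1 animal, 48 genes or 0.353% were called and again 0 members. The log2 fold change (GW3965 over DMSO) was negative for 32 of the 39, against 50.0% of all genes, with a median of -0.21 in both the replication and the mitosis genes and of 0.00 over all genes tested. It ran from -0.44 ± 0.22 for Mcm2 to 0.28 ± 0.19 for Gins2 (± standard error). The p-values of the unblocked fit rest on the spread between same-treatment cultures of 2 mice. For each gene that spread leans largely on other genes, with 7.78 prior against 2 residual degrees of freedom. In the blocked fit, p does not hold a gene's own spread. In bulk RNA a smaller share of dividing cells and less RNA of these genes per cell cannot be told apart.

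The 2 mice differed in their pairs of cultures. Within mouse 1, whose GW3965 culture was compared with its own DMSO culture on normalised CPM (counts scaled to the library total and by TMM, as log2), 31 of 39 members were below 0, against 50.1% of all genes, with a median difference of -0.49. In the authors' deposited table of log2 CPM that median was -0.23, with 27 of the 36 members it holds below 0. Within mouse 2 the same comparison gave 20 of 39 below 0, against 50.7% of all genes, and a median of -0.01. The medians of the replication genes were -0.40 in mouse 1 and -0.02 in mouse 2, and those of the mitosis genes -0.51 and 0.02. With 1 library per treatment in a mouse, neither set of differences has a test. Members below 0 in both mice numbered 14, against 17.2% of all genes, and in mouse 2 the size of these differences was at most 0.24. Across the 39 genes the differences of the mice ran opposite to each other (Spearman's rho -0.56, Pearson's r -0.57, genes not being independent of each other). No correlation over all genes is given beside it, and opposite signs were common over the whole table too. Of 13602 genes tested, 2335 were below 0 in both mice and 2217 above 0 in both, against 14 and 2 of the 39 members. No samples are shared by the pairs, but all 4 libraries were scaled together.

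**Figure D3:**
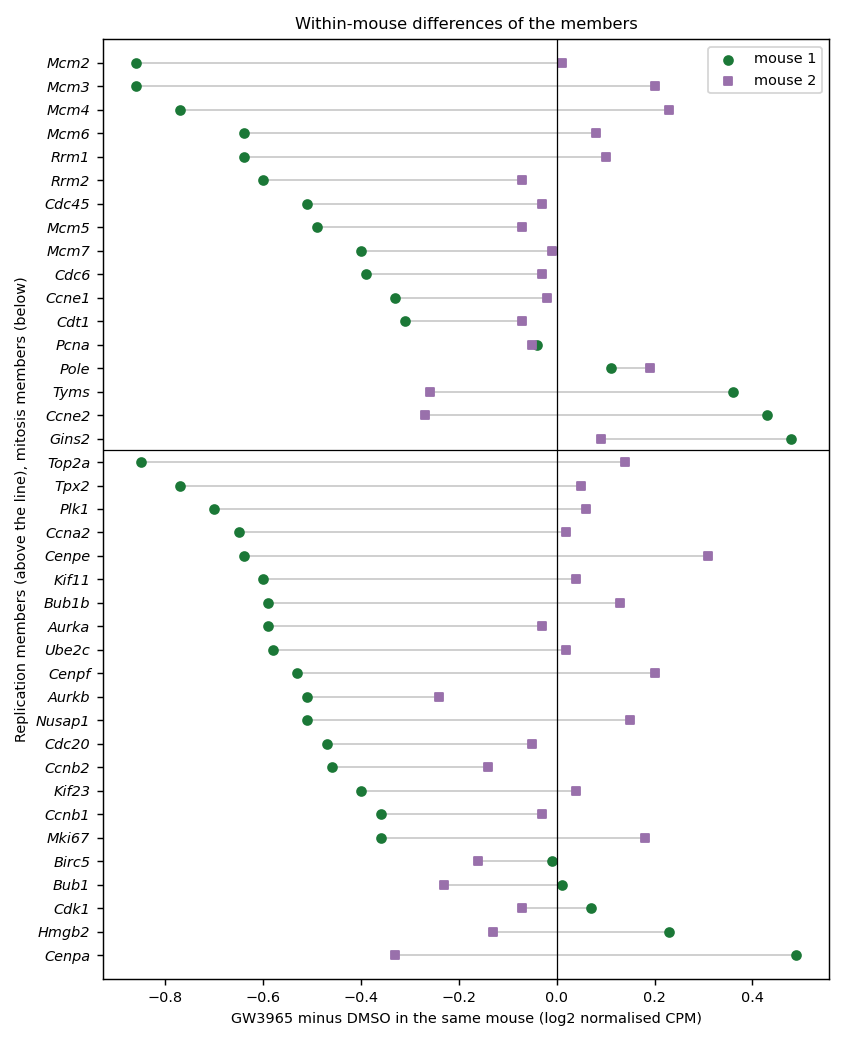
GW3965 minus DMSO in the same mouse for each member (x axis, log2 normalised CPM), green circles for mouse 1 and purple squares for mouse 2, joined by a grey line, with replication genes above the line. Of the circles, 31 lie left of 0, down to -0.86, while the squares lie between -0.33 and 0.31.

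Both libraries of mouse 1 stood apart for these genes, in opposite directions. The DMSO library of mouse 1 was the highest of the 4 for 28 members and the GW3965 library of mouse 1 the lowest for 25, where these libraries were the highest for 22.5% and the lowest for 37.5% of all genes. Members summed to 1508 and 1592 normalised CPM in the GW3965 libraries of mouse 1 and mouse 2, against 1893 and 1592 in the DMSO libraries. By this sum the cultures of mouse 2 were level with each other. On the members' own first principal component (73.6% of the variance) the GW3965 libraries of mouse 1 and mouse 2 stood at -1.79 and 0.367, against 1.49 and -0.07 for the DMSO libraries. Between the vehicle cultures alone, mouse 1 minus mouse 2, the median was 0.26, with 35 of 39 members above 0, all 22 mitosis genes among them. Between the GW3965 cultures, mouse 1 minus mouse 2, it was -0.21, with 26 of 39 below 0. Cultures given the same treatment therefore differed by about as much as the fitted difference between treatments (-0.21). Over all genes tested, the medians of these contrasts were between -0.01 and 0.01.

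**Figure D4:**
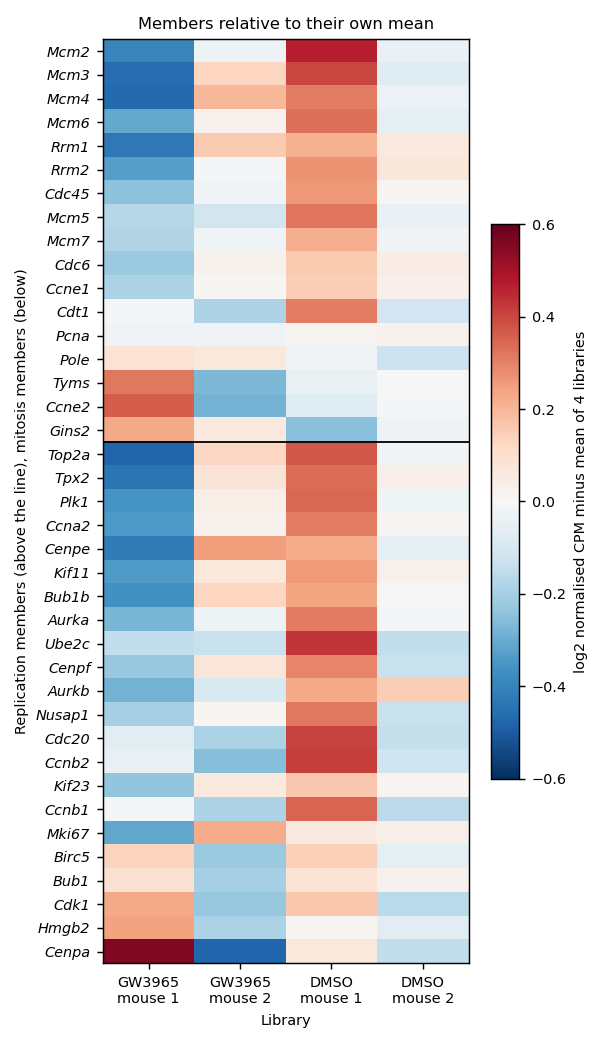
Each member relative to its own mean over the 4 libraries (colour, log2 normalised CPM), with 1 column per library and replication genes above the line. Blue prevails in the first column (GW3965, mouse 1), which is the lowest for 25 members, and red in the third (DMSO, mouse 1), which is the highest for 28, while the columns of mouse 2 are pale.

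Leaving out single libraries moved the members' median more than any other choice. With the GW3965 culture left out it was -0.14 for mouse 1 and -0.33 for mouse 2. With the vehicle culture left out it was -0.06 for mouse 1, 24 of 39 being negative, and -0.38 for mouse 2. In the fit without the GW3965 library of mouse 2, 17 members were lower at an unadjusted p under 0.05, against 12.6% of all genes in that direction. Another 4 were higher, against 10.9% of all genes, and 0 passed the adjusted threshold (smallest adjusted p = 0.0856 in edgeR's test, for Cenpa, which was higher there). Such a fit takes the spread of its lone GW3965 library from the DMSO libraries.

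All 6 helicase subunits were lower with GW3965 within mouse 1, and none passed the test. Mcm2 (GRCm38 chr6:88883474-88898780, minus strand) had 37.0 and 47.8 normalised CPM with GW3965 in mouse 1 and mouse 2, against 67.3 and 47.5 with DMSO. The GW3965 library of mouse 1 was thus the lowest and its DMSO library the highest, with those of mouse 2 nearly equal between them. The fitted log2 fold change of Mcm2 was -0.44 ± 0.22 (unadjusted p = 0.0819 in edgeR's test), the smallest p of the 39. Mcm3 had 38.6 and 58.0 CPM with GW3965, against 69.9 and 50.4 with DMSO, so its groups overlapped and the mice had opposite signs (-0.86 and 0.20). Mcm4 was alike, with 25.9 and 41.1 CPM, against 44.3 and 34.9 with DMSO, and so was Mcm6, with 39.5 and 49.8 CPM, against 61.5 and 47.1. For Mcm5 and Mcm7 both GW3965 libraries lay below both DMSO libraries, at 43.2 and 45.0 against 60.8 and 47.2 CPM for Mcm5 and at 40 and 44.5 against 52.7 and 44.8 CPM for Mcm7, though in mouse 2 the gap was -0.07 and -0.01. The differences ran from -0.86 to -0.40 in mouse 1, and in mouse 2 only Mcm5 and Mcm7 were below 0.

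Genes that license and fire origins did not pass the test either, and Gins2 differed in sign from the rest. Cdc6, the loader of the helicase, had 10.2 and 12.1 CPM with GW3965, against 13.3 and 12.3 with DMSO. Cdt1, its partner in loading, had 28.7 and 25.4 CPM, against 35.7 and 26.7. Cdc45, which activates the helicase, had 8.71 and 10.2 CPM, against 12.4 and 10.4. All 3 were below 0 in both mice, with differences of -0.31 to -0.51 in mouse 1 and of -0.07 to -0.03 in mouse 2. Gins2 (GRCm38 chr8:120578633-120589304, minus strand), a GINS subunit, went the other way, with 29.7 and 26.4 CPM against 21.3 and 24.8, and both its GW3965 libraries lay above both DMSO libraries. Its 31-mers are shared with Gse1 on the other strand to 66.2%, and between 17.6% and 67.3% of its estimated counts were placed on its coding transcript, so its value is uncertain. Per length the order differed too, with 9.62 and 8.75 TPM with GW3965, against 12.2 and 8.31 TPM with DMSO. On coding transcripts alone its difference was 0.49 in mouse 1 and -1.83 in mouse 2.

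Among the enzymes that make deoxynucleotides, the subunits of ribonucleotide reductase resembled the helicase. Rrm2, the subunit that limits the enzyme through the cell cycle, had 40.3 and 50.4 CPM with GW3965, against 61.1 and 53 with DMSO (log2 fold change -0.33 ± 0.20), and the groups did not overlap. Rrm1, the large subunit, had 30.0 and 45.0 CPM, against 46.9 and 42.1, and the groups overlapped. Tyms, thymidylate synthase, had 32 and 21.3 CPM, against 24.9 and 25.6, which is above 0 in mouse 1 and below 0 in mouse 2 (0.36 and -0.26). Only 33.9% to 51.6% of its estimated counts fell on its coding transcript. Pcna differed little between libraries, with 206.0 and 206.3 CPM, against 211.5 and 213.2 (log2 fold change -0.04 ± 0.21), a gap of -0.04 and -0.05 in the mice, and 23.3% of its 31-mers are shared with Pcna-ps2. Pole, the catalytic subunit of the leading-strand polymerase, had 14.3 and 14.1 CPM, against 13.3 and 12.4, and was above 0 in both mice. The E-type cyclins, which start S phase with Cdk2, were split. Ccne1 had 7.37 and 8.45 CPM, against 9.30 and 8.59, while Ccne2 had 18.8 and 12.0 CPM, against 13.9 and 14.5, and 15.6% of the 31-mers of Ccne2 are shared with Ints8 on the other strand.

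The mitotic cyclins and their kinase differed from each other. Ccna2, the A-type cyclin of S phase and early mitosis, had 31.6 and 40.8 CPM with GW3965, against 49.6 and 40.3 with DMSO. Ccnb1 had 43.4 and 38.4 CPM, against 55.7 and 39.2, and Ccnb2 had 20.0 and 17.3 CPM, against 27.5 and 19.0. In all 3 cyclins it was the DMSO library of mouse 1 that stood above the other 3, and the groups overlapped. Cdk1, the kinase that these cyclins activate, had 44.7 and 32.6 CPM, against 42.7 and 34.1, so it was high in both cultures of mouse 1 and its fitted log2 fold change was 0.01 ± 0.22. Reads of Ccnb1 can be shared with its pseudogene Ccnb1-ps (22.9% of 31-mers), and those of Ccna2 with Exosc9 on the other strand (13.8%).

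Aurkb, the kinase of the chromosomal passenger complex, was below 0 in both mice. Its gene lies at GRCm38 chr11:69045647-69051664 on the plus strand. It had 14.2 and 16.2 CPM with GW3965, against 20.2 and 19.1 with DMSO, and the groups did not overlap. Its difference was -0.51 in mouse 1 and -0.24 in mouse 2, and its log2 fold change -0.37 ± 0.20 (unadjusted p = 0.0883, adjusted p = 0.99986, edgeR). On coding transcripts alone the differences were -0.71 and -0.12. Leaving out any 1 library kept the log2 fold change between -0.47 and -0.28. Aurka, the centrosome kinase, had 27.2 and 32.2 CPM, against 40.9 and 32.8, and also did not overlap. Plk1, the Polo kinase, had 29.7 and 38.9 CPM, against 48.3 and 37.3, with opposite signs in the mice (-0.70 and 0.06), and shares 15.2% of its 31-mers with Plk-ps1. Birc5, or survivin, a partner of Aurkb in the passenger complex, had 33.4 and 26.1 CPM, against 33.6 and 29.2, a gap of -0.01 in mouse 1 and -0.16 in mouse 2. The mouse 1 differences of Aurkb and Birc5 rest on 1 library per treatment and were not tested against each other. The fitted log2 fold change of Birc5 was -0.08 ± 0.20. Groups that did not overlap, with GW3965 below DMSO, were seen for 9 of the 39 genes, against 9.18% of all genes. They were 7 of the 17 replication genes and 2 of the 22 mitosis genes. Some were separated only narrowly in mouse 2, as Mcm7 (44.5 against 44.8 CPM) and Ccne1 (8.45 against 8.59), while Aurkb was further apart (16.2 against 19.1). Groups with GW3965 above DMSO were seen for 2 members, both replication genes, against 1262 of all 13602 genes tested.

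Of the checkpoint and anaphase genes, Cdc20 and Ube2c stood out in the DMSO culture of mouse 1. Cdc20, which activates the anaphase-promoting complex, had 49.3 and 45.2 CPM with GW3965, against 68.3 and 46.7 with DMSO, and Ube2c had 52.8 and 53.4 CPM, against 78.9 and 52.8. In both genes 3 libraries were nearly equal and the DMSO library of mouse 1 lay above them. Without that library the log2 fold change was 0.02 for Cdc20 and 0.01 for Ube2c. Bub1b, the checkpoint protein BubR1, had 15.2 and 21.4 CPM, against 23.0 and 19.5, whereas Bub1 had 11.2 and 9.13 CPM, against 11.1 and 10.7. Cdc20 shares 23.4% of its 31-mers with the gene Gm7856 and overlaps Elovl1 on the other strand, and Ube2c shares 17.7% with Tnnc2.

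All 4 spindle motors and regulators were below 0 in mouse 1 and above 0 in mouse 2. Members of other groups, such as Mcm3, Plk1 and Top2a, had the same signs. Of 13602 genes tested, 6818 were below 0 in mouse 1, and 2335 of them were below 0 in both mice. Tpx2, which targets Aurka to the spindle, had 21.4 and 30.6 CPM with GW3965, against 36.6 and 29.6 with DMSO. Kif11, the motor that pushes the spindle poles apart, had 20.2 and 26.7 CPM, against 30.5 and 26.0. Kif23, a motor of cytokinesis, had 45.1 and 55.3 CPM, against 59.5 and 53.7, and Nusap1, a microtubule bundler, had 19.7 and 22.8 CPM, against 28.1 and 20.6. The differences ran from -0.77 to -0.40 in mouse 1 and from 0.04 to 0.15 in mouse 2. None of these groups was free of overlap.

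Chromatin and centromere genes differed in sign within mouse 1, and none passed the test. Top2a, which untangles DNA before anaphase, had 79.2 and 120.2 CPM with GW3965, against 142.8 and 109.2 with DMSO, or -0.85 in mouse 1 and 0.14 in mouse 2. Mki67 had 35.8 and 51.7 CPM, against 46.0 and 45.5, so that the highest and the lowest library were both GW3965 libraries. Hmgb2, by contrast, had 199.9 and 148.0 CPM, against 170.2 and 162.0, with its highest value in the GW3965 culture of mouse 1, and 17.3% of its 31-mers are shared with Gm13237. Cenpa, the centromeric histone, had 45.6 and 22.3 CPM, against 32.4 and 28.0, which is the largest ratio between the GW3965 cultures among the members. Only 22.1% to 29.8% of the estimated counts of Cenpa fell on coding transcripts, where its difference was 0.22 and -0.09, against 0.49 and -0.33 over all transcripts. Cenpe had 9.87 and 15.7 CPM, against 15.4 and 12.7, and Cenpf had 7.80 and 9.60 CPM, against 11.2 and 8.32. Both were below 0 in mouse 1 and above 0 in mouse 2.

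The members above 0 in mouse 1 were Gins2, Tyms, Ccne2, Pole, Cenpa, Hmgb2, Cdk1 and Bub1, among them Gins2, Tyms and Cenpa, whose counts fell least on coding transcripts. Across the 39 genes, the mouse 1 difference and that share had a Spearman's rho of -0.35 (Pearson's r -0.63), and the mouse 1 difference and the length of the leading transcript had a rho of -0.31. Both are descriptions over genes read from the same libraries, and no value over all genes is given beside them. Signs in mouse 1 also depended on the scale, since by TPM 37 of 39 members were below 0, with the median of all genes at -0.23. With coding transcripts alone the median in mouse 1 was -0.51, with 31 of 39 below 0, and in mouse 2 it was 0.01.

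**Figure D5:**
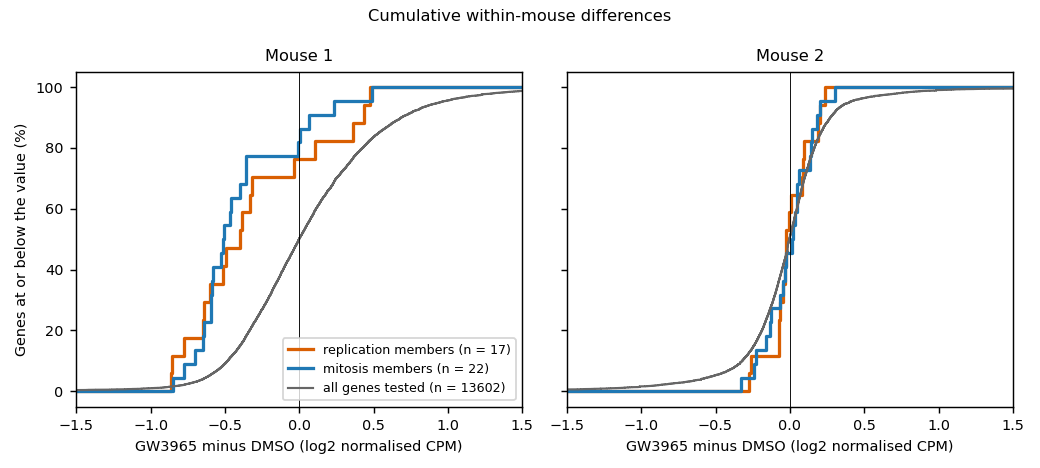
Share of genes (%) with a within-mouse difference at or below the value on the x axis (GW3965 minus DMSO, log2 normalised CPM), for replication genes, mitosis genes and all 13602 genes tested, 1 panel per mouse. In mouse 1 both member curves lie left of that of all genes (medians -0.40 and -0.51), and in mouse 2 the 3 curves run together (medians -0.02 and 0.02).

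Further genes of the same processes gave the wider frame. Of 50 other mitosis genes, all tested, 0 passed in either direction, 40 had a negative log2 fold change and the median was -0.16, with -0.31 in mouse 1 and -0.01 in mouse 2. Those with the smallest p were Aspm of the spindle poles (5.24 and 5.51 CPM with GW3965, against 8.89 and 5.57 with DMSO), Sgo1, which guards centromeric cohesion (9.02 and 8.81, against 10.5 and 11.5), Ska3 of the kinetochore (8.77 and 9.60, against 12.1 and 10.6) and the motor Kif18a (9.50 and 6.09, against 6.78 and 5.67). Of 46 other replication genes 0 passed and 29 were negative, but the median was -0.05, and -0.05 also in mouse 1. Among them were the flap nuclease Fen1 (17.7 and 22.5 CPM, against 27.4 and 23.0), the polymerase delta subunit Pold2 (31.5 and 40.9, against 52.2 and 38.9), the helicase Recql4 (9.20 and 5.51, against 5.65 and 5.09) and Dtl, which directs the destruction of Cdt1 (13 and 12.0, against 17.5 and 13.5).

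Of 36 genes that control the cycle, 35 were tested, 0 passed and 27 were negative, with a median of -0.07. Ccnd1, the D-type cyclin that relays growth signals, had 68.8 and 106.0 CPM with GW3965, against 136.0 and 99.3 with DMSO, with mouse 1 holding both the lowest and the highest library. Lin9 of the complex that binds CHR sites had 4.81 and 7.50 CPM, against 10.8 and 8.11 (log2 fold change -0.62 ± 0.29). Ccnd3 (16.3 and 18.6, against 25.7 and 17.3) and Cdk6 (22.7 and 25.5, against 30.0 and 26.7) followed by p. The p53 target list had 12 of 18 members above 0, 0 past the threshold and a median of 0.05. Its members with the smallest p were Phlda3, Eda2r, Trp53inp1 and Sesn1, with log2 fold changes of -0.30, 0.42, 0.28 and -0.19.

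Other marker groups differed alongside the members in mouse 1. Mitochondrial transcripts took 14.01% and 8.74% of the gene counts in the GW3965 libraries of mouse 1 and mouse 2, against 7.60% and 9.43% in the DMSO libraries. The 12 epithelial markers (Epcam, keratins and others, none at 0) summed to 25043 and 35991 CPM with GW3965, against 32975 and 34480 with DMSO, and all 12 were below 0 in mouse 1, with a median of -0.37. The 10 markers of stem and progenitor cells summed to 561.1 and 660.0 CPM, against 744.1 and 640.3, so that the lowest and highest libraries were those of the members. All 10 were below 0 in mouse 1 (median -0.27) and 5 in mouse 2 (median -0.00). Ascl2, the lowest of the 10 in each mouse, was below 0 in both mice (-0.835 and -0.715), unlike most members. For 4 of the 10 both GW3965 libraries lay below both DMSO libraries, against 9.18% of all genes. All 16 immune markers were above 0 counts in every library and summed to 468.2 and 413.8 CPM, against 410.9 and 431.1, with a median difference of 0.91 in mouse 1 and -0.26 in mouse 2. Those of mesenchyme and endothelium summed to 51.7 and 42.6 CPM, against 35.3 and 40.2, with 0 to 2 of 14 at 0 in a library. The 12 enterocyte markers summed to 6645 and 7234 CPM, against 5601 and 6811, with a median difference of -0.05 in mouse 1 and 0.06 in mouse 2. The 12 secretory markers summed to 14563 and 13134 CPM, against 13042 and 12403, with medians of 0.14 and 0.10. What part these shifts had in the members' values was not tested. As a check of the treatment labels, the receptor targets were past the threshold in edgeR's test. Abca1, a sterol exporter, had 42.8 and 60.4 CPM with GW3965, against 0.462 and 1.75 with DMSO (adjusted p = 0.00134). Abcg1, another exporter, had 25.7 and 28.7 CPM, against 1.39 and 1.27 (adjusted p = 0.000157). Srebf1, a regulator of lipid synthesis, had 398.0 and 476.9 CPM, against 73.0 and 78.4 (adjusted p = 0.00525).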

How the data were processed

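RNA of 4 libraries, 2 per treatment and 1 of each per mouse, was read as single-end 50 bp reads from a stranded poly-A kit, per the labels' protocols. The submitters' processing notes name kallisto, FastQC, CASAVA 1.7 and mm10, but neither a transcript release nor a strand setting. Per the file headers, the authors deposited estimated counts and TPM per transcript. They also deposited a series-wide table of the same counts in whole numbers (largest gap 0.5) and a table of log2 CPM for 8524 symbols, 36 members among them, whose scaling is not stated. Totals were 16572359 to 19486547 estimated counts.

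Of 88198 transcripts, 86119 matched GENCODE M21 (GRCm38). Their counts were summed over 30284 genes and rounded, and the rest, 0.685 to 0.854% of counts, were left out. Genes were tested with edgeR 4.0.16 (R 4.3.3; filterByExpr, TMM, glmQLFit, glmQLFTest), with p adjusted over all genes at 0.05. DESeq2 1.42.0 and limma 3.58.1 (voom) were alternatives. Same-numbered libraries come from 1 mouse, per the labels, and their deviations from group means correlated at 0.067 across genes and -0.257 across members. The blocked fit has 1 residual degree of freedom and an infinite prior, so its p does not hold a gene's own spread. Within-mouse differences use log2 CPM with a prior count of 1. Fits were tested on simulated data. Every pair of libraries differed beyond sampling noise, with chi-square values per degree of freedom of 47.1 to 72 for pairs with the GW3965 library of mouse 1 and of 9.89 to 20.5 for the others. Shared 31-mers were counted on both strands among the deposited transcripts. Named are all 39 members, the 4 genes with the smallest p of each wider list, and the label checks. Ascl2 and Rfc1 are named outside this rule, for their values. Members and lists were chosen with earlier results of these data known.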

Additional observations from a re-analysis of the deposited data

How the results depend on the processing

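No member passed the adjusted threshold under any of the 13 alternatives to the unblocked edgeR fit, and each of the members' medians stayed negative in all of them. The number of genes called over the whole table was 8, against 48 with the replicate block, 20 with DESeq2, 20 with limma-voom, 14 without a filter on low counts and 38 to 84 when 1 library was left out. For the members, 484 of 507 values kept their sign and side of the threshold, and 21 of the 23 sign changes came from leaving out 1 library. The others were Cdk1 with limma-voom (-0.00) and without a filter (-0.01). Leaving out 1 library gave log2 fold changes of -0.27 to 0.09 for Birc5, -0.26 to 0.04 for Bub1, -0.48 to 0.01 for Bub1b, -0.45 to 0.06 for Ccnb1, -0.24 to 0.40 for Ccne2, -0.54 to 0.02 for Cdc20, -0.24 to 0.22 for Cdk1, -0.41 to 0.02 for Cdt1, -0.44 to 0.59 for Cenpa, -0.51 to 0.16 for Cenpe, -0.37 to 0.07 for Cenpf, -0.17 to 0.27 for Hmgb2, -0.62 to 0.05 for Mcm4, -0.36 to 0.18 for Mki67, -0.41 to 0.05 for Nusap1, -0.57 to 0.02 for Rrm1, -0.24 to 0.34 for Tyms and -0.58 to 0.01 for Ube2c, and the cause was not tested. The replicate block left the median at -0.21 and changed no member's call. Within mouse 1 the median was -0.54 with plain CPM, -0.43 with plain CPM of the non-mitochondrial genes and -0.70 with TPM, where the median of all genes was also shifted, to -0.23. In the authors' log2 CPM table it was -0.23 over 36 members. Over 8463 genes that table's differences had an SD of 0.219 in mouse 1, against 0.369 here (r = 0.93), and of 0.248 in mouse 2, against 0.198 here (r = 0.84), and its scaling is not stated. Within mouse 2, TPM left 12 members negative in place of 20, with the median of all genes at 0.06. The coding-transcript setting was chosen after seeing the data. Members had 121 to 4118 estimated counts in a library, and each group held 2 cultures.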

Other observations

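Rfc1, the large subunit of the complex that loads the Pcna clamp, was listed at 7.31 and 0 CPM with GW3965 in mouse 1 and mouse 2, against 0 and 11.2 CPM with DMSO. It was singled out after its values were seen, and its counts were not used in any statement on the members.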
